A study of Mus musculus with 6 samples.

Results

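The genes described here are 37 genes of the response to low oxygen and of glycolysis, followed in A375 melanoma xenografts of mice given the EZH2 inhibitor ZLD1039 or vehicle. They were chosen by name, through their Ensembl identifiers, as known targets or regulators of the hypoxia response and as enzymes of glycolysis. The exception was TMEM45A, which was added because its value was lower under ZLD1039 in these same tumours, so its values are given as a description and were not tested. Of the 37 genes, 33 had a locus in the transcript lists of at least 1 tumour, out of 15234 loci in all, and 32 were listed in all 6 tumours. HIF1A, GPI, LOX and PFKFB4 had no locus under their identifiers and are not analysed here.

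A375 is an established human melanoma cell line. Wild-type A375 cells were grown under the skin of BALB/c nude mice, which lack T cells, in groups of 5 mice. Mice received ZLD1039 at 100 mg/kg by mouth once a day, or vehicle, and on day 27 RNA was sequenced from 3 tumours of each group. ZLD1039 inhibits EZH2, the enzyme of the Polycomb complex that methylates histone H3 at silenced genes. The labels do not say that each tumour came from a different mouse, so p-values measure only the spread between these tumours, which may be technical in part. All A375 cells derive from 1 line. In bulk tumour RNA fewer cells of a type and less RNA per cell cannot be told apart. Whether RNA of mouse cells in the tumours entered these values was not tested.

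Cells sense oxygen through the prolyl hydroxylases of the EGLN family, which mark the alpha subunits of the hypoxia-inducible factors (HIF) for destruction while oxygen is present. When oxygen is scarce the factors persist and switch on genes for glucose uptake, glycolysis, blood vessel growth, acid export and matrix production. Tumours that outgrow their blood supply, and many cancer cells even in oxygen, run glycolysis at a high rate and release lactate.

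The values are in FPKM, an abundance scaled to transcript length and to the number of mapped fragments, which allows levels of different genes to be set side by side. Sequencing depth is unknown, and counting error is therefore not given. The lists held 117347 to 126622 transcript events in a tumour, and 526 of the 175743 events in all belonged to the genes described here. ZLD1039 tumour 2 stood apart, at 51.9 on the first principal component of all loci, against -13.3 to -4.02 for the other 5 tumours. Positions are given as in the deposited lists and are numbered on human chromosomes.

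The glycolytic enzymes were among the most abundant transcripts of the graft. GAPDH, which oxidizes glyceraldehyde phosphate, had a mean of 2606 FPKM over the 6 tumours, and the enolase ENO1 had 1270 FPKM. Lactate dehydrogenase A (LDHA), aldolase A (ALDOA) and triose phosphate isomerase (TPI1) followed with means of 635, 588 and 529 FPKM. The median rank of the 7 genes from triose phosphate to lactate was at the 99.5 percentile of the 10834 loci tested. Over all 31 genes tested the median percentile was 88.4, and the lowest was that of the lactate exporter SLC16A3, with a mean of 3.69 FPKM at the 27.1 percentile. Among the hypoxia targets NDRG1, a stress-induced cytoplasmic protein, was the most abundant, with a mean of 222.6 FPKM.

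**Figure D1:**
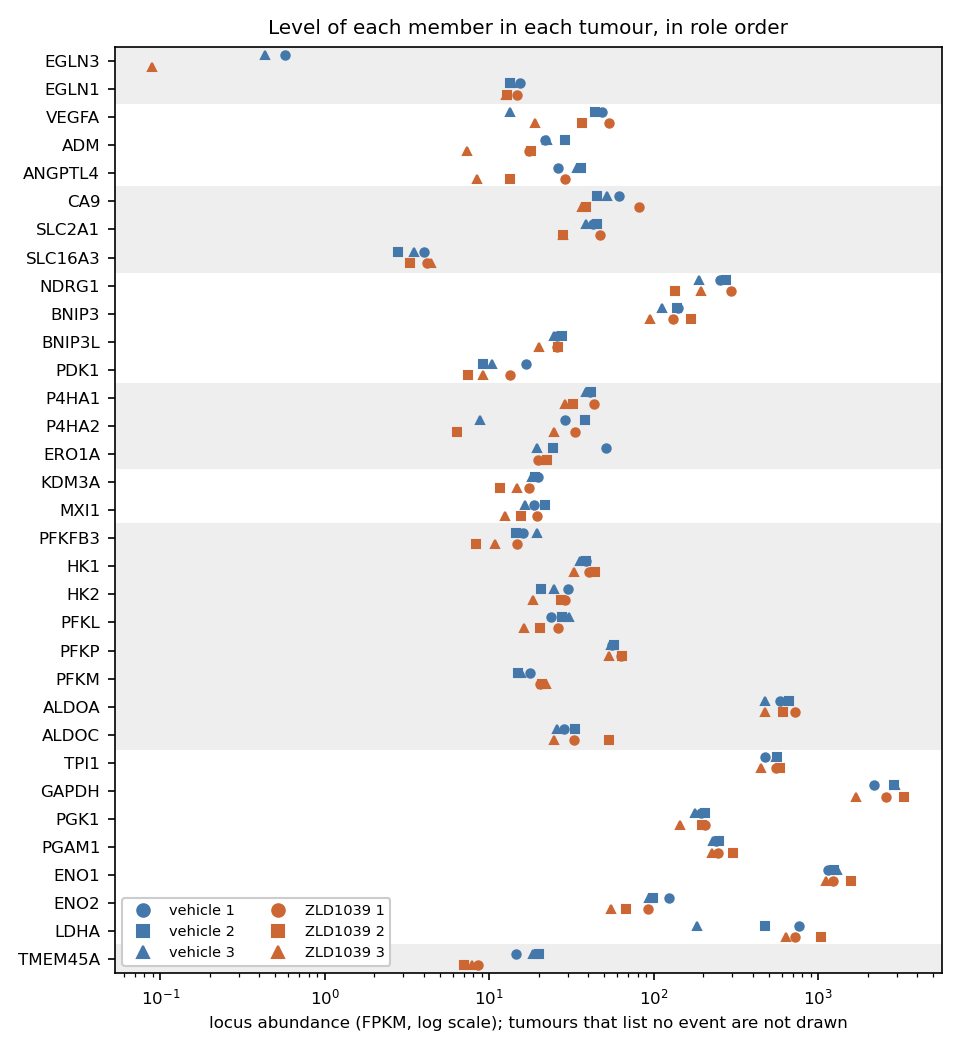
Abundance of each listed gene in each tumour, in FPKM on a log axis, with vehicle tumours in blue and ZLD1039 tumours in orange and the genes in order of role. GAPDH and ENO1 lie highest, EGLN3 is drawn only for the 3 tumours that list it, and TMEM45A has all ZLD1039 tumours below all vehicle tumours.

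No gene of the set differed between the treatments after adjustment over all loci. Differences are on the scale of log2(FPKM + 1), ZLD1039 minus vehicle, and were tested with limma over 10834 loci. Of the 31 genes tested, 0 passed an adjusted p of 0.05, beside 2 of all loci (0.0185%). At an unadjusted p under 0.05 there were 5 of 31, beside 4.94% of all loci: ANGPTL4, ADM, ENO2 and PFKFB3 with lower values and PFKM with higher values. The smallest Benjamini-Hochberg adjusted p among the 31 was 0.88. The groups did not overlap with ZLD1039 lower in 3 genes (ADM, KDM3A and ENO2), beside 5.20% of all loci, and with ZLD1039 higher in PFKM alone, beside 5.75% of all loci.

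Lower values lay mostly among the hypoxia response genes, although the 2 sets of roles were not tested against each other. Of the 16 hypoxia response genes tested, 14 had a lower value under ZLD1039 and VEGFA and SLC16A3 had a higher one, with a median log2 difference of -0.25. The 15 glycolytic genes were spread over both sides, 7 lower and 8 higher, with a median of 0.04. Of all loci, 47.2% were lower and the median was 0.02. The lower values of the hypoxia response genes did not run through every ZLD1039 tumour. In vehicle tumours 1, 2 and 3, 16, 11 and 6 of the 16 were above their mean over the 6 tumours. In ZLD1039 tumours 1, 2 and 3 it was 14, 3 and 2. Of all loci, 47.4%, 48.1% and 55.9% were above their mean under vehicle and 49.0%, 51.5% and 55.7% under ZLD1039. Without ZLD1039 tumour 2, the library that stood apart, the log2 differences were -0.98 for ANGPTL4, -1.02 for ADM, -0.55 for ENO2, -0.37 for PFKFB3, -0.23 for KDM3A, 0.38 for PFKM and 0.74 for LDHA. When each tumour was left out in turn, the count of lower hypoxia response genes was between 11 and 15 of 16. Their median was -0.10 without vehicle tumour 1, -0.16 without ZLD1039 tumour 3 and -0.43 without ZLD1039 tumour 1. The count of lower glycolytic genes rested on single tumours: it was 11 of 15, with a median of -0.07, without ZLD1039 tumour 2 and 3 of 15, with a median of 0.16, without ZLD1039 tumour 3.

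**Figure D2:**
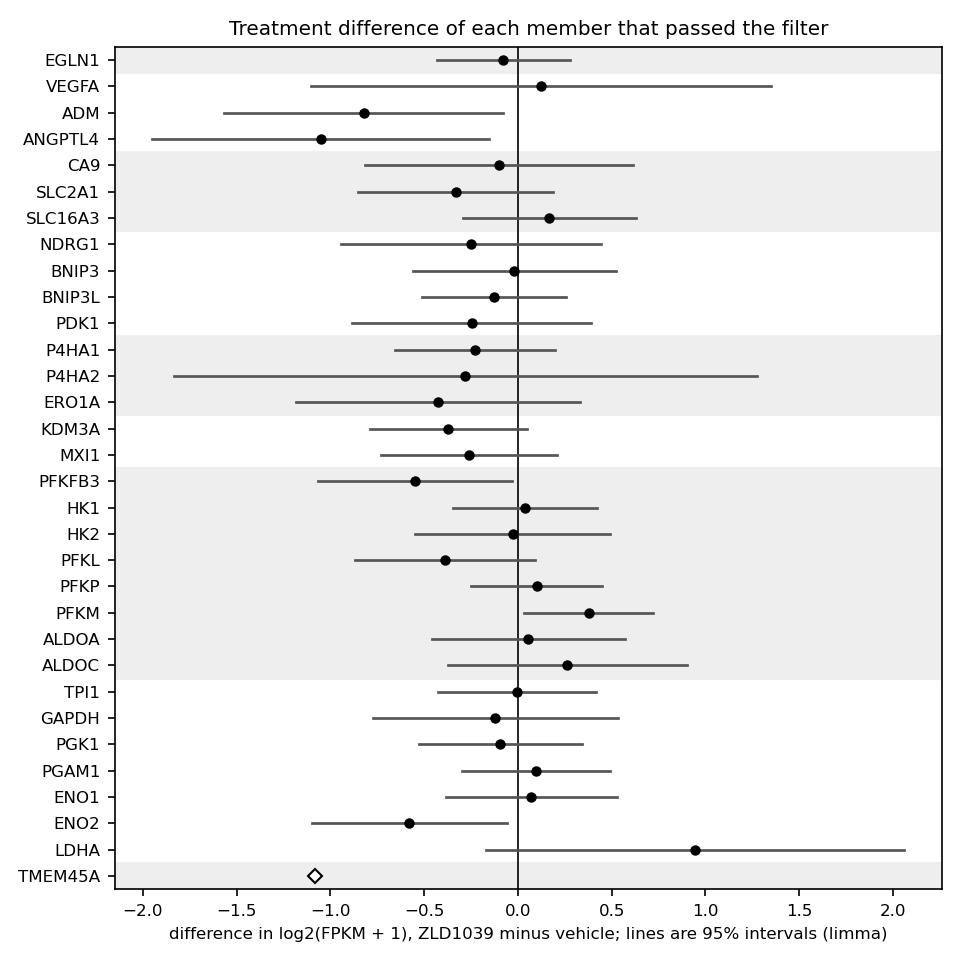
Difference in log2(FPKM + 1), ZLD1039 minus vehicle, for each gene that passed the abundance filter, with 95% intervals from limma. Most of the hypoxia response genes, in the upper rows, lie left of 0 with intervals that cross it, and TMEM45A is an open diamond with no interval because it was chosen by this contrast.

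Among the 31 genes tested the 2 lowest differences were those of ANGPTL4 and ADM, both secreted signals, while VEGFA, the third secreted signal, had a positive difference of 0.12. ANGPTL4 (ENSG00000167772, chromosome 19, 8428008 to 8436406), a secreted inhibitor of lipoprotein lipase, measured 26.0, 36.2 and 34.3 FPKM in the vehicle tumours and 28.7, 13.3 and 8.40 FPKM in the ZLD1039 tumours. ZLD1039 tumour 1 lay within the vehicle range and ZLD1039 tumours 2 and 3 below it. The log2 difference was -1.05 (standard error 0.39, 95% interval -1.95 to -0.15, limma unadjusted p = 0.027, adjusted p = 0.88), and -0.67 without ZLD1039 tumour 3.

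ADM (ENSG00000148926, chromosome 11, 10326227 to 10327645) encodes adrenomedullin, a peptide that widens blood vessels. It measured 21.9, 28.9 and 22.4 FPKM under vehicle and 17.4, 17.9 and 7.37 FPKM under ZLD1039. Every ZLD1039 tumour was below every vehicle tumour, with ZLD1039 tumour 3 far below the rest. The log2 difference of ADM was -0.82 (standard error 0.32, 95% interval -1.57 to -0.08, limma unadjusted p = 0.034, adjusted p = 0.88), and -0.44 without ZLD1039 tumour 3.

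VEGFA, the main growth factor of blood vessels, gave no such split. Its values were 48.4, 43.9 and 13.3 FPKM under vehicle and 53.7, 36.6 and 18.9 FPKM under ZLD1039. In each group 1 tumour, vehicle tumour 3 and ZLD1039 tumour 3, was far below the others, and the interval of the log2 difference ran from -1.10 to 1.35. The difference was -0.45 without vehicle tumour 3.

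At the cell surface, CA9, the carbonic anhydrase that hydrates carbon dioxide outside the cell, measured 61.3, 45.2 and 51.9 FPKM under vehicle and 81.3, 38.8 and 36.5 FPKM under ZLD1039. The highest and the 2 lowest values of CA9 were all in ZLD1039 tumours, and the sign of its difference turned when single tumours were left out. The glucose importer SLC2A1 measured 42.8, 44.9 and 38.8 FPKM under vehicle and 46.8, 27.9 and 28.1 FPKM under ZLD1039, again with ZLD1039 tumour 1 on the side of the vehicle tumours. SLC16A3, which exports lactate, lay between 2.77 and 4.41 FPKM in all 6 tumours.

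Among the genes of stress and mitochondria, NDRG1 was listed at 252, 274 and 188 FPKM under vehicle and at 295, 134 and 194 FPKM under ZLD1039. The mitophagy receptors BNIP3 and BNIP3L and the kinase PDK1 had log2 differences of -0.02, -0.13 and -0.25. All 4 genes of this role had a lower mean log2 value under ZLD1039, with groups that overlapped in each. Leaving out a single tumour turned the sign for NDRG1 and BNIP3.

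Of the collagen-modifying and folding genes, the prolyl hydroxylases P4HA1 and P4HA2 had log2 differences of -0.23 and -0.28. P4HA2 had the widest interval of the 31 genes. It measured 29.1, 38.4 and 8.81 FPKM under vehicle and 33.4, 6.33 and 24.7 FPKM under ZLD1039, and the interval ran from -1.84 to 1.28. Its difference was 0.39 without ZLD1039 tumour 2. The oxidase ERO1A, which drives disulfide formation in the endoplasmic reticulum, measured 51.5 FPKM in vehicle tumour 1 and 19.6 to 24.3 FPKM in the other 5 tumours. Its difference of -0.43 was -0.03 without vehicle tumour 1.

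The nuclear regulator KDM3A, a histone demethylase induced by low oxygen, measured 19.7, 19.1 and 18.2 FPKM under vehicle and 17.5, 11.7 and 14.7 FPKM under ZLD1039. The groups did not overlap, with ZLD1039 tumour 1 close to the lowest vehicle tumour, and the log2 difference was -0.37 (95% interval -0.79 to 0.05, limma unadjusted p = 0.075, adjusted p = 0.88). MXI1, a MYC antagonist, had a log2 difference of -0.26 with groups that overlapped. Of the oxygen sensors, EGLN1 lay between 12.7 and 15.4 FPKM in all tumours, and EGLN3 was listed in 3 tumours only, at 0.58 and 0.43 FPKM in vehicle tumours 1 and 3 and at 0.09 FPKM in ZLD1039 tumour 3, below the abundance filter.

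TMEM45A (ENSG00000181458, chromosome 3, 100211463 to 100293503), which encodes a membrane protein known to be induced by hypoxia, measured 14.6, 20.1 and 18.4 FPKM under vehicle and 8.58, 6.996 and 7.83 FPKM under ZLD1039. Vehicle tumours averaged 17.7 ± 2.82 FPKM and ZLD1039 tumours 7.80 ± 0.79 (SD over 3 tumours each), with a log2 difference of -1.08. These are the values that brought it into the set.

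PFKFB3 makes the fructose bisphosphate that activates phosphofructokinase, and it measured 16.0, 14.6 and 19.4 FPKM under vehicle and 14.7, 8.35 and 10.8 FPKM under ZLD1039. ZLD1039 tumour 1 was level with the lowest vehicle tumour. The log2 difference of PFKFB3 was -0.55 (standard error 0.22, limma unadjusted p = 0.041, adjusted p = 0.88).

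PFKM, the muscle form of phosphofructokinase (ENSG00000152556, chromosome 12, 48499694 to 48538834), was the gene with separate groups in the other direction. It measured 17.7, 15.0 and 15.6 FPKM under vehicle and 20.4, 21.0 and 22.1 FPKM under ZLD1039. All ZLD1039 tumours were above all vehicle tumours, and the log2 difference was 0.38 (standard error 0.15, 95% interval 0.03 to 0.72, limma unadjusted p = 0.036, adjusted p = 0.88). It was between 0.33 and 0.44 when each tumour was left out in turn.

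The liver form PFKL was listed at 23.8, 27.8 and 30.7 FPKM under vehicle and at 26.2, 20.4 and 16.3 FPKM under ZLD1039, and the platelet form PFKP at 53.6 to 64.1 FPKM in all tumours. As shares of the 3 forms together, PFKM made up 18.3%, 14.9% and 15.4% under vehicle and 18.6%, 19.9% and 24.0% under ZLD1039. PFKL made up 24.6%, 27.7% and 30.3% under vehicle and 23.9%, 19.3% and 17.8% under ZLD1039. The groups did not overlap for any of the 3 shares, which sum to 100%, although vehicle tumour 1 and ZLD1039 tumour 1 were less than 1 percentage point apart in each. The exact two-sided permutation test gave p = 0.1 for each, the smallest it can give with 3 tumours against 3, and an adjusted p of 0.3 over 9 isozyme shares. When each gene was measured by its largest event alone, the groups overlapped for PFKL and PFKP (exact permutation p = 0.2 and 0.8). They stayed apart for PFKM (exact permutation p = 0.1).

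Under ZLD1039 the share of PFKP was 58.8% against 56.2%, a difference of 2.58 percentage points that was 0.61 when each gene was measured by its largest event alone, 1.61 without vehicle tumour 3 and 1.60 without ZLD1039 tumour 2. Of the other isozyme pairs, the neuronal enolase ENO2 made up 7.97% ± 1.65 of both enolases under vehicle and 5.26% ± 1.50 under ZLD1039 (SD, n = 3, exact p = 0.2, adjusted p = 0.45). The ENO2 share difference of -2.71 percentage points was -1.77 without vehicle tumour 1. HK2 made up 39.9% of the hexokinases HK1 and HK2 under vehicle and 38.8% under ZLD1039 (exact permutation p = 0.8). ALDOC stayed a small part beside ALDOA, with means of 4.86% under vehicle and 5.78% under ZLD1039 (exact permutation p = 0.8).

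**Figure D3:**
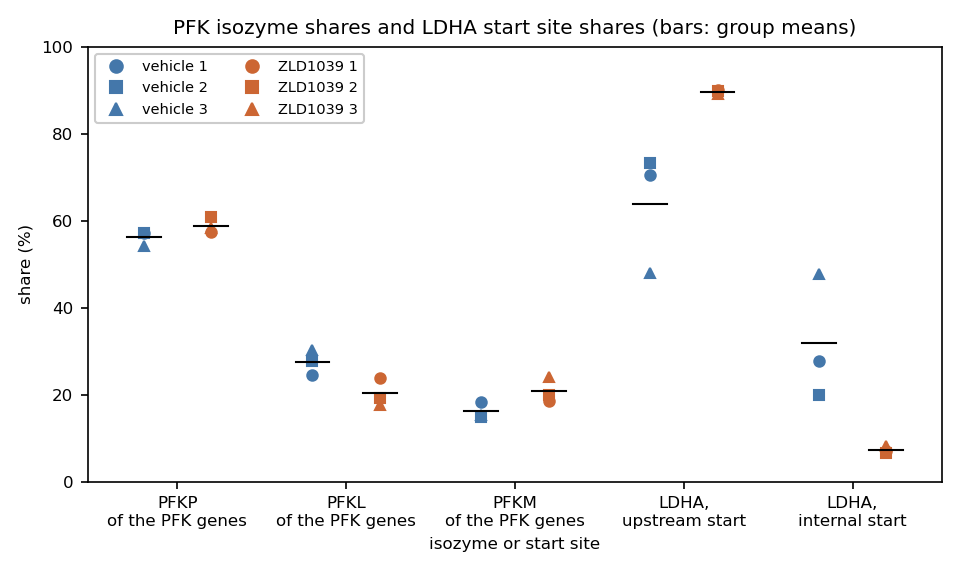
Share in percent of each phosphofructokinase gene in the sum of the 3, and of 2 LDHA start sites in all LDHA starts, for each tumour, with bars at the group means. The LDHA upstream start lies between 89.2% and 90.0% in the ZLD1039 tumours and between 48.1% and 73.2% in the vehicle tumours, and the PFK shares differ by a few percentage points.

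ENO2 (ENSG00000111674, chromosome 12, 6982733 to 7031327) measured 124, 99.3 and 94.1 FPKM under vehicle and 92.4, 67.5 and 55.1 FPKM under ZLD1039. The groups did not overlap, and the log2 difference was -0.58 (standard error 0.22, 95% interval -1.10 to -0.06, limma unadjusted p = 0.034, adjusted p = 0.88). The listed locus spans 48595 bases and holds start sites far upstream of its leading one, which made up 2.90% to 7.24% of its starts in a tumour. Whether these belong to a neighbouring gene was not tested.

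The abundant enzymes had small differences. GAPDH measured 2191, 2905 and 2931 FPKM under vehicle and 2583, 3338 and 1685 FPKM under ZLD1039, with the highest and the lowest value both under ZLD1039. ENO1 measured 1139, 1250.0 and 1308 FPKM under vehicle and 1235, 1580.3 and 1108 FPKM under ZLD1039. Their log2 differences were -0.12 and 0.07.

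ALDOA measured 589, 665 and 472 FPKM under vehicle and 718, 612 and 472 FPKM under ZLD1039, a log2 difference of 0.06. TPI1 measured 473, 558 and 557 FPKM under vehicle and 551, 587 and 447 FPKM under ZLD1039, a log2 difference of -0.01. The sign of the difference changed for GAPDH, ENO1, ALDOA and TPI1 when a single tumour was left out. The limma adjusted p was 0.95 for GAPDH, 0.96 for ENO1, 0.97 for ALDOA and 1.0 for TPI1. Phosphoglycerate kinase (PGK1) and phosphoglycerate mutase (PGAM1), the steps in between, had log2 differences of -0.09 and 0.10.

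LDHA, which turns pyruvate into lactate, had the widest spread of these. It measured 760, 477 and 182 FPKM under vehicle and 721, 1033 and 638 FPKM under ZLD1039, with vehicle tumour 3 far below every other tumour. The log2 difference was 0.95 (95% interval -0.17 to 2.06, limma unadjusted p = 0.086, adjusted p = 0.88), and 0.37 without vehicle tumour 3.

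LDHA was also read from several start sites. The upstream start (chromosome 11, 18415935 to 18416183, plus strand) made up 70.5%, 73.2% and 48.1% of all LDHA starts under vehicle and 90.0%, 89.9% and 89.2% under ZLD1039. The 3 ZLD1039 tumours were within 1 percentage point of each other, and all lay above the vehicle tumours. The difference was 25.7 percentage points (95% interval 6.84 to 44.6, limma unadjusted p = 0.016, adjusted p = 0.76 over 21321 start sites).

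An internal start of LDHA (18421273 to 18422557) took most of the remainder, with 27.8%, 19.9% and 47.7% under vehicle and 6.97%, 6.60% and 8.32% under ZLD1039. In FPKM it was 211, 95.2 and 87.1 under vehicle and 50.3, 68.1 and 53.1 under ZLD1039, so the internal start itself was lower in every ZLD1039 tumour (log2 difference -1.08, limma adjusted p = 0.86 over events). The 2 shares are parts of 1 sum and are not independent.

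Of the 63 start sites tested in 20 of the genes, 0 passed an adjusted p of 0.05, beside 0 of all sites (0%), and 1, the LDHA upstream start, had an unadjusted p under 0.05, beside 2.49% of all sites. After the 2 LDHA starts, the smallest p-values were those of MXI1, PGK1 and PFKL. The MXI1 start at 111987401 to 111988079 of chromosome 10 made up 54.9% and 63.5% in vehicle tumours 1 and 3 and 0% in the other 4 tumours. The leading start of PGK1 made up 90.3%, 86.5% and 93.1% under vehicle and 95.8%, 99.9% and 92.6% under ZLD1039, and an internal PFKL start at 45739506 of chromosome 21 went from 8.27%, 4.52% and 0.01% to below 0.01% in each ZLD1039 tumour.

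Most of the genes kept 1 leading start, as did most of all loci with several starts. The same leading start was found in all 6 tumours for 21 of the 28 genes with several starts (75.0%), beside 61.4% of all loci with several starts, and the mean share of the leading start was 87.8% beside 83.2%. All loci were not matched to these genes in abundance, and the difference was not tested. The genes whose leading start changed between tumours were ALDOA, ENO2, MXI1, P4HA2, PFKFB3, PFKL and VEGFA.

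In PFKFB3 the leading start changed in ZLD1039 tumour 3, and its share was low in ZLD1039 tumours 2 and 3. Its main start (chromosome 10, 6244829 to 6245299) made up 80.9%, 80.1% and 79.4% of starts under vehicle and 84.3%, 46.1% and 43.5% under ZLD1039, while the far upstream start at 6186881 to 6186976 made up 17.0% to 18.4% under vehicle and 14.2%, 37.7% and 53.4% under ZLD1039. In FPKM the main start gave 12.9, 11.7 and 15.4 under vehicle and 12.4, 3.84 and 4.70 under ZLD1039 (log2 difference -0.99, limma adjusted p = 0.86 over events). ZLD1039 tumour 1 again lay with the vehicle tumours. The one variable exon of PFKFB3 that was tested (6268155 to 6268328, 174 bases) was included at 97.3% to 100% in all tumours.

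VEGFA offered a view of exon choice. Its transcripts can leave out or keep 2 optional exons, of 72 bases (chromosome 6, 43748469 to 43748540) and 132 bases (43749693 to 43749824), and the exons kept decide how strongly the protein binds heparin and the cell surface. These 4 ways through the gene were compared after the layout of the lists had been seen. Their shares are percentages of the sum of the 4 ways, not of all VEGFA transcripts. Transcripts with neither exon, the layout of the freely diffusing short form, made up 54.5%, 74.5% and 82.8% under vehicle and 89.1%, 66.4% and 75.2% under ZLD1039. Transcripts with the 132-base exon alone made up 37.5%, 24.9% and 16.0% under vehicle and 7.30%, 28.2% and 24.8% under ZLD1039. The groups overlapped for both, and the form with neither exon led in every tumour. For inclusion of the 132-base exon the difference was -6.51 percentage points with a 95% interval of -34.1 to 21.0 (limma adjusted p = 0.85).

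Transcripts with the 72-base exon alone were listed in 3 tumours, at 6.11% in vehicle tumour 1 and at 3.10% and 4.56% in ZLD1039 tumours 1 and 2. Those with both exons stayed at or below 1.91% in every tumour. This last count also took in a first exon of 54 bases (43748469 to 43748522), which has the same start as the 72-base exon.

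**Figure D4:**
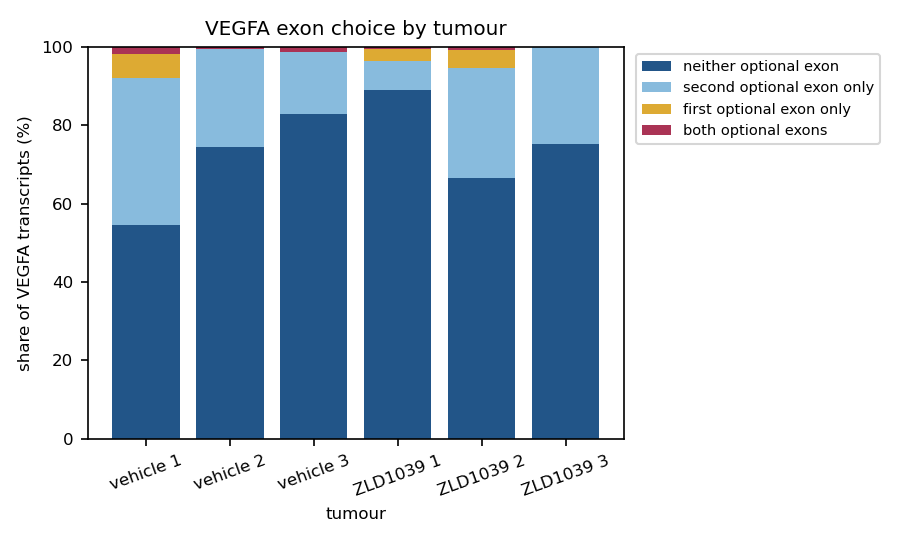
VEGFA transcripts that kept neither optional exon, the second (132 bases) alone, the first (72 bases) alone or both, for each tumour. Those with both include a first exon of 54 bases with the same start. Shares are in percent of the sum of these forms, not of all VEGFA transcripts. Transcripts with neither exon are the largest part in all 6 tumours, from 54.5% in vehicle tumour 1 to 89.1% in ZLD1039 tumour 1.

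In the other splicing measures no item of the set passed either. Of 52 exons, exon runs and introns tested in 18 genes, 0 passed an adjusted p of 0.05, beside 0 of all (0%), and 5 had an unadjusted p under 0.05, beside 2.09% of all. These 5 were 2 PFKL introns, a run of PDK1 exons, and an exon and a run of exons in the listed ENO2 locus. Each had a limma adjusted p of 0.72, a value that items with larger unadjusted p shared. The PFKL intron at 45745147 to 45745844 of chromosome 21 was retained at 8.49%, 10.5% and 10.3% under vehicle and at 0% in every ZLD1039 tumour, over a mean total of 24.8 FPKM. The neighbouring intron at 45744800 to 45745036 was retained at 12.2%, 1.11% and 4.45% under vehicle and at 100% in the ZLD1039 tumours. Its mean total was 1.53 FPKM, nearly all of it from the vehicle tumours, so the 100% rested on very low values.

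Both PFKL values came with a form that the vehicle tumours listed at 1.97, 3.21 and 3.44 FPKM and no ZLD1039 tumour listed. It spliced the intron at 45744800 and kept part of the next intron, from 45745147 to 45745615. Its 2 events had the smallest p of the 312 events tested in the genes (limma adjusted p = 0.46). The PDK1 run (chromosome 2, 173427469 to 173429415) was included at 0%, 23.7% and 21.7% under vehicle and 100% under ZLD1039, over a mean total of 1.19 FPKM. The ENO2 exon at 6991360 to 6991491 was included at 50.2%, 9.07% and 7.65% under vehicle and at 70.8%, 86.9% and 84.6% under ZLD1039, and the ENO2 run at 7019054 to 7022191 at 45.9%, 51.9% and 42.0% and at 99.9%, 64.9% and 99.7%. Both lie upstream of the leading ENO2 start and had mean totals of 1.22 and 1.85 FPKM. Whether they belong to a neighbouring gene was not tested.

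Some inclusion values were all or none. A 12-base exon of ERO1A (chromosome 14, 53128011 to 53128022) was included at 100% in ZLD1039 tumours 1 and 3 and at 0% in the other 4 tumours, over a mean total of 21.4 FPKM. Events that a tumour did not list were set to 0, and what lay behind these values was not tested.

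Among single events, 0 of 312 passed an adjusted p of 0.05, beside 0.0362% of all 82894 events, and 38 had an unadjusted p under 0.05, beside 4.70%. Events of 1 transcript share their values, so the 38 are not independent. After the PFKL pair came the LDHA exon at 18426996 to 18427119, listed as 2 events with the same values, at 261, 135 and 103 FPKM under vehicle and 374, 544 and 295 FPKM under ZLD1039 (log2 difference 1.34, limma adjusted p = 0.86). An alternative end of the LDHA exon at 18422384 to 18422557 followed, at 260.2, 374 and 87.3 FPKM under vehicle and 663, 953 and 579 FPKM under ZLD1039 (log2 difference 1.80). Of 7 end sites tested in 3 genes, 0 passed an adjusted p of 0.05, beside 0 of all (0%), and 0 had an unadjusted p under 0.05, beside 2.86%. The smallest p was that of an ENO2 end at 6992868 to 6993780, upstream of the leading ENO2 start. Over a mean total of 1.60 FPKM, it made up 0.35%, 0.83% and 1.36% under vehicle and 45.2%, 1.80% and 56.9% under ZLD1039. The limma unadjusted p was 0.066 and the adjusted p 0.77.

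The genes were then followed tumour by tumour. The deviation of each gene's log2(FPKM + 1) from its own mean over the 6 tumours had a median of 0.13, 0.11 and -0.04 in vehicle tumours 1, 2 and 3 and of 0.14, -0.01 and -0.30 in ZLD1039 tumours 1, 2 and 3. ZLD1039 tumour 3 held the lowest value of 19 of the 31 genes (61.3%), beside 15.0% of all loci, and 4 of the 31 were above their mean there, beside 55.7% of all loci. In ZLD1039 tumour 1, 27 of 31 were above their mean, beside 49.0% of all loci.

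The hypoxia response genes and the glycolytic genes parted in ZLD1039 tumour 2. There the 16 hypoxia response genes had a median deviation of -0.18, with 3 above their mean, and the 15 glycolytic genes one of 0.16, with 12 above their mean and 8 at their highest level of the 6 tumours. Of all loci, 51.5% were above their mean in this outlying tumour, 26.5% were at their highest and 24.5% at their lowest. In ZLD1039 tumour 3 both were low, with medians of -0.33 and -0.30, and 11 of the 15 glycolytic genes had their lowest value.

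In summed FPKM, ZLD1039 tumours 2 and 3 held the highest and the lowest glycolytic share. The glycolytic genes made up 2.62%, 2.78% and 2.47% of the FPKM of all loci under vehicle and 2.72%, 2.95% and 2.11% under ZLD1039. The hypoxia response genes made up 0.360%, 0.340% and 0.246% under vehicle and 0.350%, 0.213% and 0.229% under ZLD1039. The groups overlapped in both sums.

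**Figure D5:**
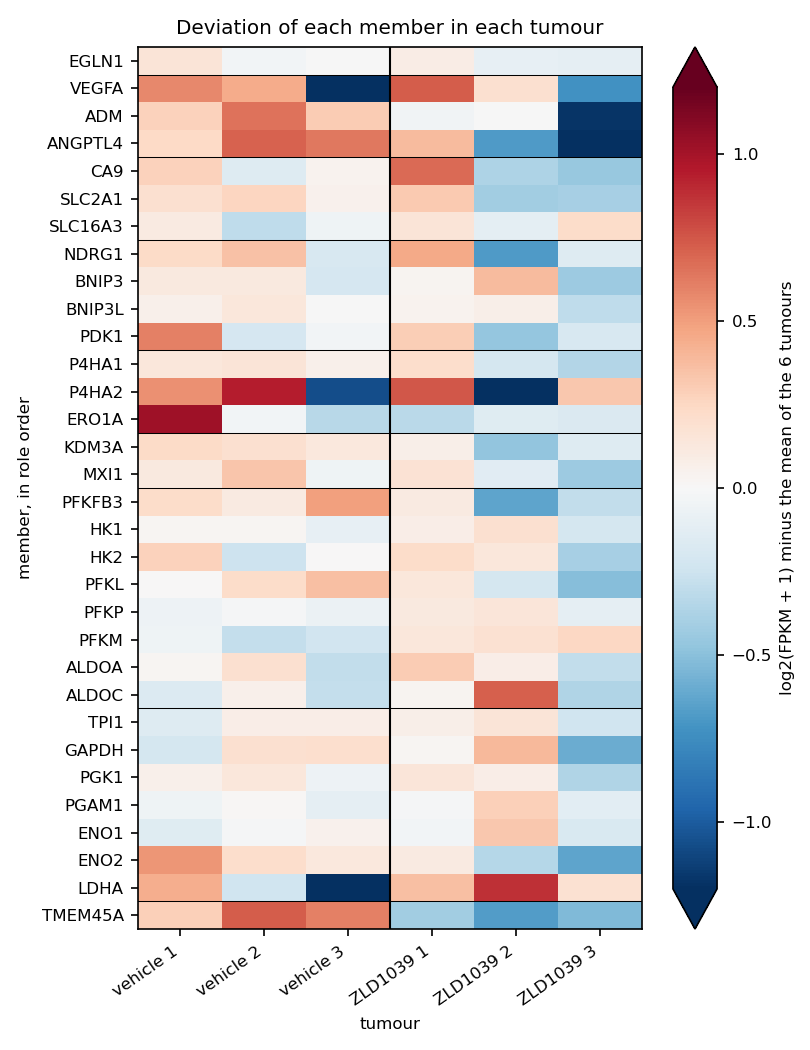
Deviation of log2(FPKM + 1) from each gene's mean over the 6 tumours, with red above and blue below the mean, genes in order of role and tumours in columns. ZLD1039 tumour 3 is blue in most rows, ZLD1039 tumour 1 is red in most, and ZLD1039 tumour 2 is mostly blue among the hypoxia response genes and mostly red among the glycolytic genes.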

How the data were processed

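The authors deposited FPKM per transcript event for each tumour, per the file headers. The submitters' processing notes list, without a role, the mouse build mm10 and the tools HTSeq 0.6.1 and bcl2fastq 2.17.1.14. Aligner and assembler: not given in the sources used here. Against mm10, the positions cover 22 autosomes and reach 249214145 on chromosome 1, so the build is treated as unnamed. The lists pair no gene names with identifiers, and symbols come from the choice of genes. Other pathway genes, cell type markers and the target EZH2 were not matched, since the reference tables used here are mouse, so the labelled cell type was not checked against its markers. The chosen genes and role groups were set with earlier results of these data known.

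A locus was the largest of its summed starts, summed ends and largest event, with unlisted events at 0. Where ENO1 and ENO2 each had a second locus on the opposite strand, at most 1.00 FPKM in 1 tumour, the higher one was used. A mean of 1 FPKM in either group was required of a locus or event. Tests used limma 3.58.1 (R 4.3.3), with log2(FPKM + 1) (which understates changes of low values) and a trend of variance on mean, and p-values were adjusted by Benjamini-Hochberg over the whole table, with 0.05 as the threshold. Inclusion and start or end shares, in percent, were tested likewise where the total was at least 1 FPKM on average and above 0 in all tumours. Isozyme shares were compared by exact permutation in scipy 1.17.1. Values per tumour are given for genes with separate groups, with an unadjusted p under 0.05 or among the 5 most abundant, and further genes were added after their values were seen: VEGFA, CA9, SLC2A1, NDRG1, P4HA2, ERO1A and PFKL. For splicing, events and start sites, the 5 items with the smallest p in each test are named. For end sites only the first is named. The ERO1A exon was added after its values were seen. Alternatives were other pseudocounts, filters, scalings, locus values, a replicate block and each tumour left out.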

Additional observations from a re-analysis of the deposited data

How the results depend on the processing

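The tests were repeated with each tumour left out, with a replicate block, and under the other pseudocount, filters, scaling and locus values. In these runs 0 genes passed in any of the 5 tests. The 1 exception was inclusion without the mean-variance trend, where 2 of the 52 items from these genes passed. The share of all inclusion items that passed without the trend is not given here, so the 2 are not read as a result. The labels do not say what the replicate numbers stand for. Same-numbered tumours correlated at -0.03, 0.02 and -0.06 in their deviations, values that cannot settle whether they were handled together. With the replicate block 0 genes passed in each test, with a limma adjusted p of 0.94 for ADM. The median log2 difference of the 31 genes was between -0.19 and 0.06 with each tumour left out, and above 0 only without ZLD1039 tumour 3. At an unadjusted p under 0.05, limma gave 9 of the 31 genes without ZLD1039 tumour 1, where all loci rose to 9.10%, and 0 without ZLD1039 tumour 3, beside 5.03% of all loci.

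Isozyme shares changed sign where their differences were small. With each tumour left out the difference in percentage points ran from -3.73 to 0.77 for HK2, from -0.20 to 1.62 for ALDOC, from -1.86 to 0.11 for BNIP3L and from -9.47 to 8.72 for P4HA2. HK2 gave 1.139 from summed starts. From summed starts, EGLN3 and BNIP3L gave no share, because no start was listed for a gene of the pair in some tumours. The PFKFB4 share was not run. Among single genes the log2 difference changed sign for ALDOA (-0.084 without ZLD1039 tumour 1, -0.080 without vehicle tumour 3, range -0.084 to 0.22), for TPI1 (0.11 without ZLD1039 tumour 3, 0.03 without vehicle tumour 2 and 0.03 without vehicle tumour 3, range -0.088 to 0.11, and 0.000153 from the largest event), for GAPDH (0.15 without ZLD1039 tumour 3, range -0.35 to 0.15) and for ENO1 (-0.072 without ZLD1039 tumour 2, range -0.072 to 0.18, and -0.033 from summed starts). The cause was not tested. For genes added after their values were seen, the ranges with each tumour left out crossed 0 for VEGFA (-0.45 to 0.52), CA9 (-0.47 to 0.10), NDRG1 (-0.54 to 0.026) and P4HA2 (-0.88 to 0.39). The ranges also crossed 0 for BNIP3 (-0.21 to 0.20), PGK1 (-0.19 to 0.063) and PGAM1 (-0.021 to 0.18), whose values per tumour are not given. BNIP3 gave 2.04 from summed starts, with a start listed in ZLD1039 tumour 1 alone. Under every alternative run, the signs held for ADM, ANGPTL4, ENO2, KDM3A, LDHA, PFKFB3, PFKM, SLC2A1, BNIP3L, PDK1, P4HA1, ERO1A, MXI1 and PFKL, and for TMEM45A, whose direction its choice had set. The counts of lower genes by role, added after the data were seen, are given with each tumour left out beside the results. Depth is unknown, so what a higher depth would show cannot be said.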
